A study of Mus musculus with 20 samples.

Results

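The 7 leukocyte guidance receptors followed through eosinophils and macrophages of the mouse colon were the chemokine receptors Ccr1, Ccr2, Cx3cr1 and Cxcr4, the atypical receptor Ccrl2, and the formyl peptide receptors Fpr1 and Fpr2. They were taken by name from both deposited expression tables, so they are 7 of 50600 gene names, and all 7 were present in each table. The libraries formed 4 groups of C57BL/6 cells: 7 of eosinophils from colon tumors, 2 of eosinophils from naive colon, 6 of macrophages from colon tumors and 5 of macrophages from naive colon. Tumors came from wild-type animals in which CAC (the labels' abbreviation) had been induced, and the controls were naive animals of the same strain. Both cell types were sorted by flow cytometry from digested colon, and their RNA was read by CEL-Seq, which barcodes and counts the 3′ ends of transcripts. The labels name neither the sorting markers nor the animals behind a library, so the p-values measure the spread between these libraries, part of which may be technical. Depth ran from 1477255 to 8520874 reads per library. The 6 tumor macrophage libraries fell into 3 close pairs, 1 with 2, 3 with 4 and 5 with 6, whose counts differed by a chi-square per gene of 7.36 to 11.9, against 20.2 to 63.5 for their other pairs. Among naive macrophages, libraries 3 and 5 and libraries 2 and 4 were alike to a similar degree (8.60 and 10.5). No pair agreed within sampling noise. That does not show that the paired libraries are independent samples, since technical spread can exceed sampling noise. Each library was counted in the main fits, and the fits were repeated with these pairs merged.

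Chemokine receptors and formyl peptide receptors are membrane-spanning proteins that couple to inhibitory G proteins and steer leukocytes along gradients of their ligands. In the gut, Ccr2 lets blood monocytes respond to Ccl2 and enter the tissue, and Cx3cr1, the receptor of the tethered chemokine Cx3cl1, is a hallmark of the macrophages that settle there. Ccr1 answers to Ccl3, Ccl5 and, in the mouse, Ccl6 and Ccl9. Cxcr4 is the receptor of Cxcl12, which holds leukocytes in marrow and tissue. Ccrl2 binds chemerin, the product of Rarres2, without signalling and presents it to the signalling receptor Cmklr1. Fpr1 recognises formylated peptides released by bacteria and mitochondria, and Fpr2 recognises a wider set of ligands that includes annexin A1, serum amyloid A and the cathelicidin peptide encoded by Camp. Both formyl peptide receptors are abundant on neutrophils and are also made by monocytes and macrophages.

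Fpr1 and Fpr2 lie side by side on chromosome 17 of the mouse build GRCm38, Fpr1 at chr17:17876471-17883940 on the minus strand and Fpr2 at chr17:17887824-17893952 on the plus strand. Ccr1 (chr9:123962124-123968692, minus strand), Ccr2 (chr9:124101950-124113557, plus strand), Cx3cr1 (chr9:119901616-120069879, minus strand) and Ccrl2 (chr9:111054486-111057519, minus strand) are on chromosome 9, and Cxcr4 is at chr1:128588199-128592293 on the minus strand. All 7 are annotated as protein-coding in GENCODE M21. The RefSeq promoters (GRCm38.p6, 250 bases before to 50 after the gene start, 5′ to 3′ on the gene's strand) are shown for the 4 receptors whose groups were called and did not overlap in macrophages, Fpr1 and Fpr2 (higher in tumors) and Ccr2 and Cx3cr1 (lower). The windows are chr17:17883890-17884189 (minus strand) for Fpr1, chr17:17887574-17887873 (plus strand) for Fpr2, chr9:124101933-124102232 (plus strand) for Ccr2 and chr9:120068247-120068546 (minus strand) for Cx3cr1. Capitals mark matches to any of 4 motifs searched on both strands: the PU.1 core GAGGAA, C/EBP TTNNGNAA, AP-1 TGANTCA and STAT TTCNNNGAA.
Fpr1: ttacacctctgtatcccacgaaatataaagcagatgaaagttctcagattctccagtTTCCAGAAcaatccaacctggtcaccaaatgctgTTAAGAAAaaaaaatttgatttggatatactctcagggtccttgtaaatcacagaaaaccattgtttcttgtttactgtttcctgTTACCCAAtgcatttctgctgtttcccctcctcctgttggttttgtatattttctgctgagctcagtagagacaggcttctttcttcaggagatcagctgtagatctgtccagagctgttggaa
Fpr2: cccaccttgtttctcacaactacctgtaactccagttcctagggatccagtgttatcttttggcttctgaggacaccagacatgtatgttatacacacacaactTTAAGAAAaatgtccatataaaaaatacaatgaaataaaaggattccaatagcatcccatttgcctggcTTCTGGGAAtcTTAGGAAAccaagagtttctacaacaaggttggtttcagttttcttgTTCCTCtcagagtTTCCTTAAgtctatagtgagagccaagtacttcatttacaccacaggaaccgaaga
Ccr2: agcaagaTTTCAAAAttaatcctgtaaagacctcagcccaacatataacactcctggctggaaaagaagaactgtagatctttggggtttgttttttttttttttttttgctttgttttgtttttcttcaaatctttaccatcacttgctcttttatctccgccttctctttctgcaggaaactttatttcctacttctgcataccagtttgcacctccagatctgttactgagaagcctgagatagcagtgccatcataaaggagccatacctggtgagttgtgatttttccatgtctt
Cx3cr1: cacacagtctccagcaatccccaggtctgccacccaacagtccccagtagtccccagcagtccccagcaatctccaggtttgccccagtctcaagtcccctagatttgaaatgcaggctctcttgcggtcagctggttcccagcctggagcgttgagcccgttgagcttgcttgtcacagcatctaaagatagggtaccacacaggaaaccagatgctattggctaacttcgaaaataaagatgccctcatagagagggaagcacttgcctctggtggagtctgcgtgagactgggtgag

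The Fpr1 window held 3 C/EBP matches, the Fpr2 window 3 C/EBP matches with 1 PU.1 core and 1 STAT match, and the Ccr2 window 1 C/EBP match. None of the 4 motifs was found in the Cx3cr1 window. Among 32544 RefSeq promoters of 300 bases, 40.7% held the C/EBP letters, 28.1% the PU.1 core, 8.33% the STAT letters and 7.79% the AP-1 letters. A match is a string of letters and was not tied to binding in these cells.

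Fpr2 and Fpr1 were the receptors with the largest tumor effect in eosinophils. Fpr2 transcripts had a lowest value of 302, a median of 1858 and a highest value of 2060.2 normalised reads (reads divided by the authors' size factor) in tumor eosinophils, against 10.4 and 41.1 in the 2 naive libraries. Every tumor library lay above both naive ones, and the tumor libraries themselves spanned a 6.82-fold range. Group means were 1318 ± 799 normalised reads in tumor eosinophils (SD, n = 7) and 25.8 ± 21.7 in naive eosinophils (n = 2), a ratio of 51.2. The naive values rest on 18 and 34 reads. On the log2(value + 1) scale Fpr2 was 5.56 ± 0.76 higher (SE, 95% interval 3.91 to 7.21), with a Benjamini-Hochberg adjusted p of 0.00269 by limma.

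Fpr1 followed the same pattern at fewer reads. Its normalised reads were 39.1 at the lowest, 313 at the median and 634 at the highest in tumor eosinophils, against 0 and 13.3 in naive eosinophils. The naive libraries held 0 and 11 reads of Fpr1, and 0 reads in naive library 1 allow a level of up to 1.74 normalised reads (3 reads, counting error only). Group means were 324 ± 224 in tumor eosinophils (SD, n = 7) and 6.64 ± 9.39 in naive eosinophils (n = 2). The log2 change of Fpr1 was 5.89 ± 1.1 (95% interval 3.52 to 8.27, adjusted p = 0.0114), but its size turned on the naive libraries: 3.97 without naive library 1 (adjusted p = 0.0871) and 7.81 without naive library 2 (0.0254). For Fpr2 the same omissions gave 4.62 (0.0206) and 6.50 (0.0185), and limma-voom with quality weights called neither gene (0.523 for Fpr1, 0.0623 for Fpr2).

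In macrophages both formyl peptide receptors were again higher in tumors. Fpr2 ran from 274 through a median of 874 to 1852 normalised reads in tumor macrophages, against 178, 199, 143, 187 and 146 in naive macrophages. Means were 883 ± 599 in tumor macrophages (SD, n = 6) and 170 ± 25.1 in naive macrophages (n = 5), a ratio of 5.18. Fpr1 had 37.7, 138 and 219 normalised reads at the lowest, median and highest in tumor macrophages, against 32.1, 24.9, 36.0, 28.8 and 30.4 in naive macrophages, a ratio of means of 4.22. The 6 tumor libraries lay above all 5 naive ones for both genes, although tumor libraries 3 and 4 exceeded the highest naive library by little for Fpr1. The log2 changes were 2.05 ± 0.41 for Fpr2 (adjusted p = 0.00255) and 1.74 ± 0.42 for Fpr1 (0.0103). With the close tumor and naive pairs merged, Fpr2 stood at 2.07 (adjusted p = 0.0376) and Fpr1 was not called (1.74, 0.0798). Limma-voom did not call Fpr1 either (1.63, 0.0578).

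The ratio of Fpr2 to Fpr1 reads varied from 2.86 to 9.59 over the libraries in which both had reads. Each library held 2.86 to 7.73 Fpr2 reads per Fpr1 read in tumor eosinophils, 3.09 in the naive eosinophil library with an Fpr1 read, 3.10 to 9.59 in tumor macrophages and 3.96 to 7.98 in naive macrophages. The ranges of the groups overlapped, and the ratio is given between libraries, not as a comparison of the 2 genes' levels. Of 12843 genes, Fpr2 was the one most like Fpr1 across the 20 libraries (Pearson r = 0.958 on log2(CPM + 1)), followed by the interferon-induced GTPase genes Gbp2 (0.923) and Ifi47 (0.923). Gbp2 (0.953) and Ifi47 (0.921) also came next for Fpr2. These r values describe likeness over libraries that share cell type, tissue and depth. Reads of Fpr2 may include some of Fpr3, which shares 48 of its 1296 exonic bases on the same strand, but Fpr3 itself had at most 8 reads in any library.

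Neutrophil markers other than Retnlg, like the formyl peptide receptors, summed higher in all tumor libraries than in any naive library of the same cell type. Monocyte sums of tumor and naive libraries overlapped in both cell types. The 15 neutrophil markers other than Retnlg summed to 485 to 2236 CPM (reads scaled to a common library size over all 20 libraries) in tumor eosinophils, against 177 and 238 in naive eosinophils, where Elane, Mpo and Prtn3 were at 0. They summed to 108 to 600 CPM in tumor macrophages and 29.3 to 57.3 CPM in naive macrophages, where Stfa1 was at 0. Retnlg is set apart because it made up most of the whole list's sum in eosinophils, which was 5544 to 17790.5 CPM in tumor and 7980 to 16067 CPM in naive libraries. With Retnlg the sums were 115 to 765 CPM in tumor macrophages and 43.6 to 67.1 CPM in naive macrophages. In eosinophils 5 of 15 tested neutrophil markers were called higher in tumors and none lower, among them Ltf (log2 change 4.62 ± 0.65, adjusted p = 0.00291), Lcn2 (4.50 ± 0.47, 0.000913) and S100a8 (4.42 ± 0.71, 0.00546), all products of neutrophil granules or cytosol. Without naive eosinophil library 2 the S100a8 call was lost (4.93, 0.0508). In macrophages 6 of 10 were called higher and none lower, led by S100a9 (5.04 ± 0.75, adjusted p = 0.000263), Lcn2 (4.51 ± 0.49, 1.86e-05) and S100a8 (4.40 ± 0.75, 0.000777).

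The tumor eosinophil libraries with the least Fpr2, numbers 2 and 3, also had the smallest neutrophil sums, 676 and 485 CPM. They had the smallest monocyte sums as well, 242 and 253 CPM against 529.9 to 757 CPM in the other 5 tumor libraries and 342 and 412 CPM in naive eosinophils. Mitochondrial genes took 35.0 and 35.2% of their reads, against 15.2 to 25.1% in the other tumor libraries, and their epithelial sums were 3742 and 4031 CPM. Without tumor libraries 1, 2 and 3, which had the 3 largest epithelial sums, the log2 changes were 6.47 for Fpr2 (adjusted p = 5.05e-05) and 6.94 for Fpr1 (0.00158). In tumor macrophages the libraries with the least Fpr1 and Fpr2, numbers 3 and 4, had monocyte sums of 259.6 and 259 CPM, against 382 to 486 CPM in the other 4. Their neutrophil sums were also the smallest, 114.8 and 107.6 CPM, against 229.5 to 599.7 CPM in those 4. Per 100 CPM of the 15 neutrophil markers, Fpr2 stood at 12.2 to 29.3 CPM in tumor eosinophils and at 1.25 and 6.01 CPM in naive eosinophils. The groups did not overlap on this scale, which depends on the markers summed. Beside S100a9 alone they did overlap. Naive library 2 had 10.6 CPM of Fpr2 and 26.0 CPM of S100a9, a proportion close to that of tumor library 1 (218.7 and 541.4 CPM). In macrophages the same ratio was 24.5 to 190 in tumor libraries (median 60.2) and 65.8 to 112 in naive libraries (median 98.3), and the groups overlapped. Without tumor macrophage libraries 1 and 2, which had the largest neutrophil sums of the macrophages (600 and 529 CPM), the log2 changes were 1.92 for Fpr2 (adjusted p = 0.0113) and 1.31 for Fpr1 (0.0432). The part of neutrophil, monocyte, epithelial or mitochondrial RNA in these results was not tested, and in sorted bulk samples a change in the share of a cell type cannot be told apart from a change of RNA per cell.

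**Figure D1:**
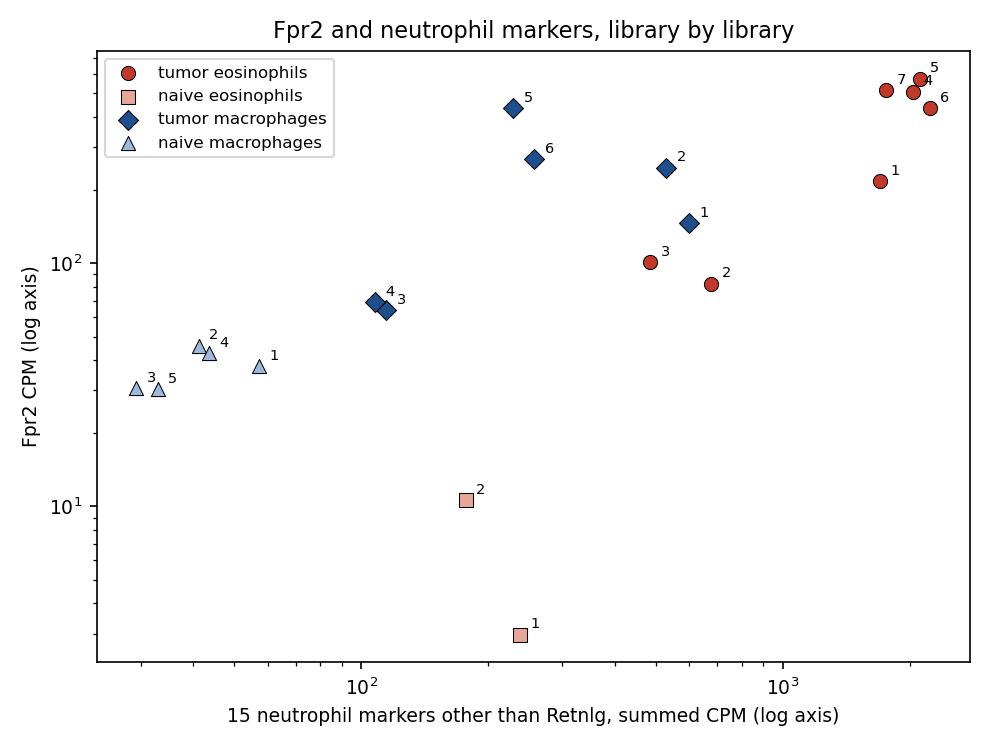
Fpr2 (vertical axis, CPM, log scale) is plotted against the summed CPM of 15 neutrophil markers (horizontal axis, log scale), 1 point per library, with the library number beside it and shape and colour giving the group. Tumor eosinophils sit at 485 to 2236 CPM of neutrophil markers and 82.5 to 576 CPM of Fpr2, against 177 and 238 CPM and 2.97 and 10.6 CPM in naive eosinophils.

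Macrophages from tumors had less Ccr2 and less Cx3cr1, the receptors that mark the monocyte-to-macrophage route. Ccr2 had 234, 286 and 309 normalised reads at the lowest, median and highest in tumor macrophages, against 776, 602, 570.0, 621 and 513 in naive macrophages. Cx3cr1 had 844, 1020 and 1414 normalised reads in tumor macrophages, against 2181, 1660.1, 2160.4, 1878 and 1906 in naive macrophages. All 6 tumor libraries were below all 5 naive libraries for both genes. Mean levels were 282 ± 30.0 in tumor and 616 ± 98.1 in naive macrophages for Ccr2, and 1084 ± 216 in tumor and 1957 ± 217 in naive macrophages for Cx3cr1 (SD, n = 6 tumor and 5 naive). Ccr2 fell by 1.12 ± 0.13 on the log2 scale (adjusted p = 3.01e-05) and Cx3cr1 by 0.87 ± 0.14 (0.000695). Each of the 24 alternative analyses kept both calls.

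Markers of resident colonic macrophages, of monocytes and of dendritic cells, which can carry these receptors, were read beside them. The 8 resident macrophage markers summed to 249.1 to 444 CPM in tumor macrophages, against 991 to 1237 CPM in naive macrophages. Of the 8, 7 were called lower and none higher, with Cd163 (log2 change −6.01 ± 0.25, adjusted p = 2.22e-09), Folr2 (−5.82 ± 0.68, 3.01e-05) and Cd209f (−5.28 ± 0.49, 4.58e-06) changed most. The 10 monocyte markers summed to 259 to 486 CPM in tumor and 285 to 504 CPM in naive macrophages, with 3 called higher (Hp, 3.54 ± 0.27; Plac8, 0.84 ± 0.21; Fn1, 0.82 ± 0.25) and 2 lower (F13a1, −3.20 ± 0.36; Ly6c2, −1.34 ± 0.43), of which Plac8, Fn1 and Ly6c2 were not called with the close tumor and naive pairs merged (adjusted p of 0.125 to 0.166). Dendritic cell markers summed to 74.5 to 231 CPM in tumor and 70.5 to 196 CPM in naive macrophages, and 5 of 7 were called lower, led by Cd209a (−4.40 ± 0.40). The general macrophage list summed to 21625 to 29594 CPM in tumor and 18166 to 24740.1 CPM in naive macrophages, with Cd14 called higher (1.03 ± 0.24), Adgre1 lower (−0.71 ± 0.17) and 10 of 12 not called. Those of Cd14 (0.0711) and Adgre1 (0.0799) were lost with the close tumor and naive pairs merged. What part these populations had in the Ccr2 and Cx3cr1 values was not tested.

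Eosinophils had few reads of either receptor. Ccr2 had 5.15, 11.2 and 32.5 normalised reads at the lowest, median and highest in tumor eosinophils, against 6.96 and 6.04 in naive eosinophils, from 6 to 27 reads in tumor and 12 and 5 reads in naive libraries. Cx3cr1 had 7.74, 13.1 and 45.2 normalised reads in tumor eosinophils, against 4.64 and 3.62 in naive eosinophils, from 5 to 69 reads in tumor and 8 and 3 reads in naive libraries. All 7 tumor libraries exceeded both naive ones for Cx3cr1 but not for Ccr2. Both genes entered the eosinophil test only through tumor libraries, 5 of 7 for Ccr2 and 6 of 7 for Cx3cr1, since no naive library reached the minimum of 10. Neither passed it: the log2 changes were 1.91 ± 0.69 for Cx3cr1 (95% interval 0.41 to 3.41, adjusted p = 0.147) and 0.95 ± 0.68 for Ccr2 (−0.52 to 2.43, 0.477). DESeq2 on the recovered reads called Cx3cr1 (2.40, adjusted p = 0.0489).

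Macrophage transcripts were also present in the eosinophil libraries. As a percentage of the macrophage mean in the same tissue, tumor eosinophils held 2.33% of the Cx3cr1 level (0.796 to 4.24% over libraries), 6.37% of the Ccr2 level (2.15 to 12.8%) and 6.42% of the summed macrophage markers (4.62 to 8.36%). Naive eosinophils held 0.264%, 1.31% and 5.33%. The macrophage sum mixes unlike genes. Naive eosinophils had more Adgre1 than naive macrophages (log2 difference 1.67 ± 0.34, adjusted p = 0.000483 by limma). Csf1r differed by −1.92, but C1qa by −7.16, C1qc by −7.22, Lyz2 by −6.44 and Apoe by −6.36. The summed percentage is therefore not a measure of macrophage RNA alone. The macrophage markers summed to 1130.1 to 2047 CPM in tumor eosinophils and 1007 and 1347 CPM in naive eosinophils. Of 10 tested, 5 were called higher in tumor eosinophils, led by the lipopolysaccharide co-receptor Cd14 (log2 change 3.89 ± 0.53, adjusted p = 0.00269), the complement gene C1qb (2.1 ± 0.43, 0.0177) and lysozyme, Lyz2 (2.0 ± 0.37, 0.0116), and Adgre1 was called lower (−2.2 ± 0.40, 0.00961). Without naive library 2 the calls of C1qb (1.74, 0.263), Lyz2 (1.84, 0.145) and Adgre1 (−1.55, 0.192) were lost. Monocyte markers summed to 242 to 757 CPM in tumor eosinophils and 342 and 412 CPM in naive eosinophils, with Hp (3.56 ± 0.59, 0.00624) and Ifitm6 (3.50 ± 0.87, 0.0392) called higher of 10, the second not without naive library 1 (2.38, 0.223) or 2 (4.63, 0.107). Whether the Cx3cr1 and Ccr2 reads of the eosinophil libraries came from eosinophils was not tested.

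**Figure D2:**
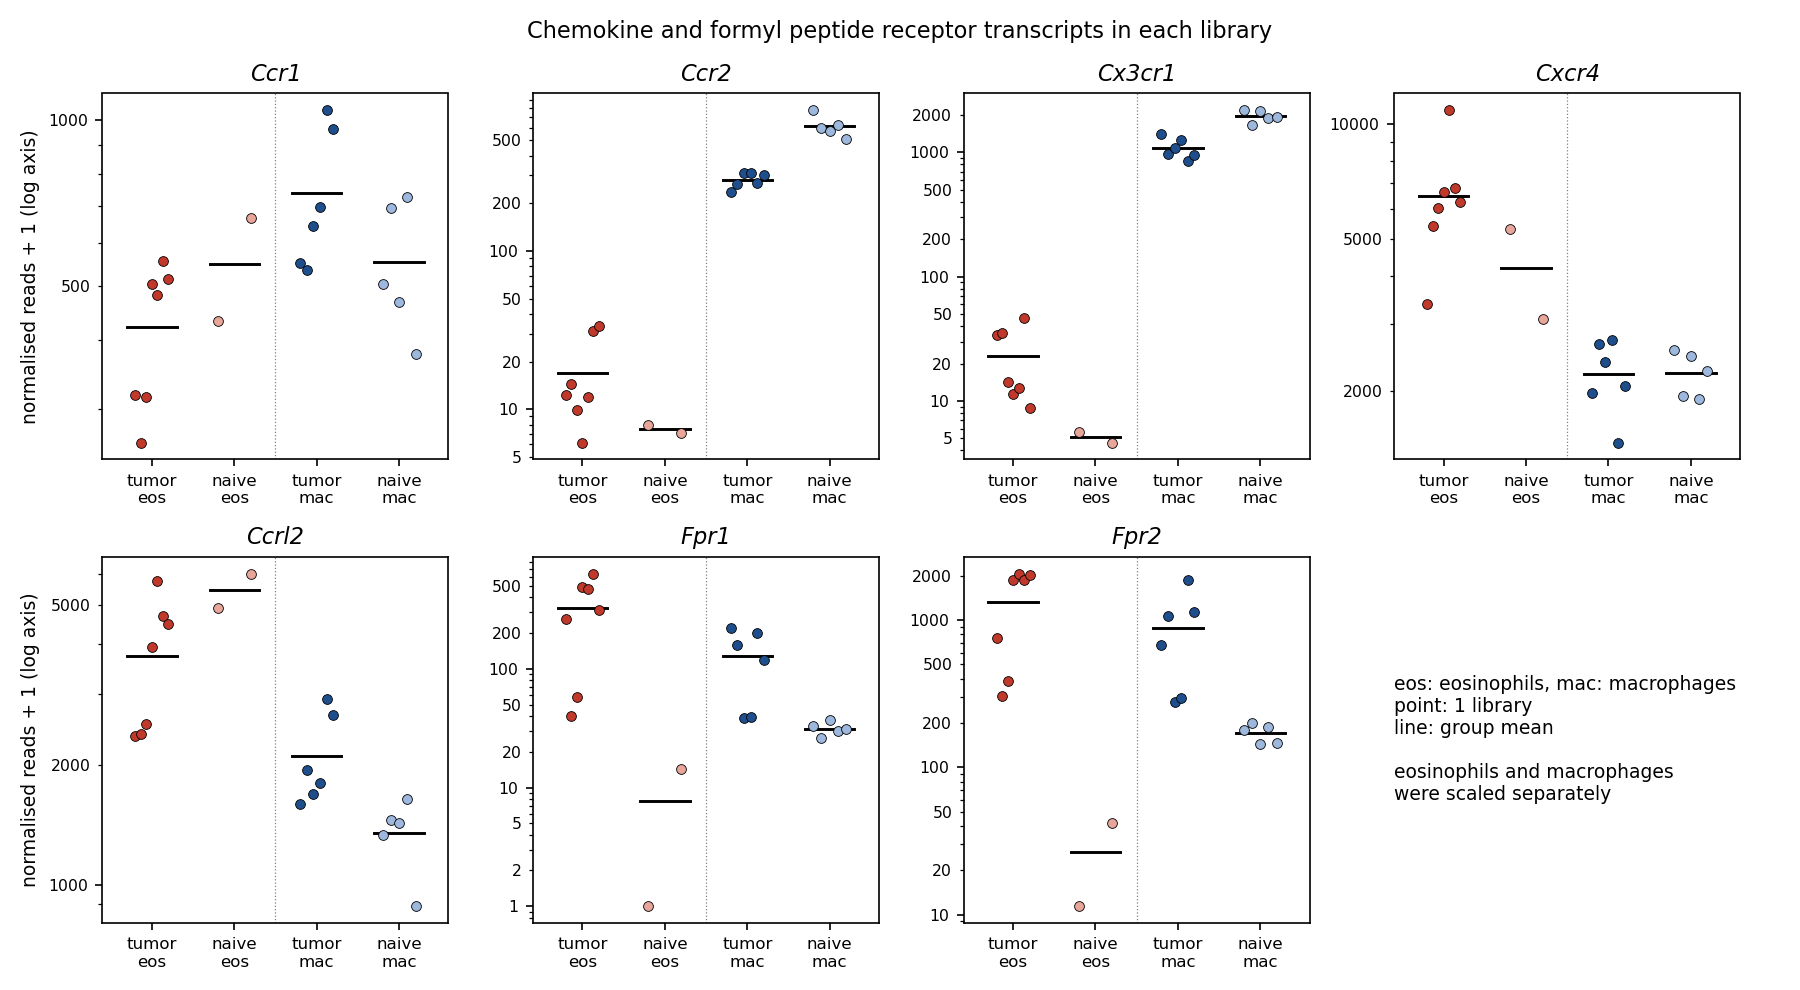
Each panel shows 1 receptor in normalised reads plus 1 (log axis) for tumor and naive eosinophils (eos) and tumor and naive macrophages (mac); points are libraries and lines are group means, and eosinophils and macrophages were scaled separately. Fpr1 and Fpr2 are higher in all tumor libraries than in any naive library of the same cell type, and Ccr2 and Cx3cr1 are lower in all tumor macrophage libraries than in any naive one.

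Ccrl2 was higher in tumor macrophages, with groups that touched. Its normalised reads were 1599 at the lowest, 1872 at the median and 2915 at the highest in tumor macrophages, against 1336, 1456, 1427, 1643 and 886 in naive macrophages. Of the 6 tumor libraries, 5 lay above every naive one, and tumor library 1 did not. The means of 2101 ± 551 in tumor and 1349.7 ± 282 in naive macrophages gave a log2 change of 0.63 ± 0.19 (95% interval 0.22 to 1.03, adjusted p = 0.0329). This call was lost without naive library 1 (0.63, adjusted p = 0.0524), naive library 5 (0.48, 0.0868), tumor library 5 (0.53, 0.0762) or tumor library 6 (0.55, 0.0740), with no filter on low values (0.0662), and with the close tumor macrophage pairs merged (0.63, 0.106).

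In eosinophils Ccrl2 had 2361, 3926 and 5748 normalised reads at the lowest, median and highest in tumors, against 4928 and 6005 in naive colon. Of the 7 tumor libraries, 6 were below both naive ones, but the log2 change of −0.62 ± 0.38 (95% interval −1.44 to 0.19) did not pass the test (adjusted p = 0.396). The 3 lowest libraries were tumor libraries 1, 2 and 3 (2361 to 2533), which also had the most epithelial transcripts: 7 epithelial markers summed to 3742 to 4558 CPM there, against 1462 to 2099 CPM in the other 4 tumor libraries and 1583 and 1929 CPM in naive eosinophils. Without these 3 libraries the log2 change of Ccrl2 was −0.22 (adjusted p = 0.703). No epithelial marker was called in eosinophils (0 of 7 by limma), and the part of epithelial RNA in these values was not tested.

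Ccr1 did not pass the test in either cell type. It had 260, 481 and 555 normalised reads at the lowest, median and highest in tumor eosinophils, against 432 and 663 in naive eosinophils. Tumor libraries 1, 2 and 3 were again the low ones (260 to 317), and the remaining 4 lay between the naive values. Macrophages had 533, 668 and 1041 normalised reads in tumors, against 503, 693, 468, 725 and 376 in naive colon, with 2 tumor libraries above every naive one. Those were libraries 5 and 6, which were also the highest tumor macrophages for Ccrl2. The log2 changes were −0.40 ± 0.35 in eosinophils (95% interval −1.15 to 0.35, adjusted p = 0.562) and 0.41 ± 0.21 in macrophages (−0.04 to 0.86, 0.208).

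Cxcr4 did not pass the test in either cell type. Its normalised reads ran from 3380 through 6257 to 10904 in tumor eosinophils, against 5309 and 3074 in naive eosinophils, and 6 of 7 tumor libraries exceeded both naive ones. In macrophages it had 1459, 2218 and 2719.6 in tumors, against 2552, 1933, 2469, 1899 and 2252 in naive colon, with tumor libraries on both sides of the naive range. The log2 change was 0.61 ± 0.39 in eosinophils (95% interval −0.22 to 1.44, adjusted p = 0.421) and −0.03 ± 0.16 in macrophages (−0.38 to 0.32, 0.924). The macrophage value changed sign under TMM (0.03) and library size scaling (0.18) and was not called under any alternative.

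Over the 7 receptors, 2 were called higher in tumor eosinophils (Fpr1 and Fpr2) and none lower, where 2.42% of 12967 tested genes were called higher and 2.19% lower (4.61% in all). In tumor macrophages 3 were called higher (Fpr1, Fpr2 and Ccrl2) and 2 lower (Ccr2 and Cx3cr1), where 8.50% of 11520 tested genes were called higher and 8.59% lower (17.1% in all). The groups did not overlap for 3 receptors in eosinophils, all with tumor libraries above naive ones, as for 7.33% of tested genes in that direction (9.76% had tumor libraries below). In macrophages they did not overlap for 2 receptors with tumor libraries above (5.19% of genes) and for 2 with tumor libraries below (5.47%). The median log2 change of the 7 was 0.95 in eosinophils and 0.41 in macrophages, against 0.01 and 0.03 over all tested genes. Of the 7, 2 (Ccr2 and Cx3cr1) passed the filter in eosinophils only through tumor libraries. Fpr1 also needed them, since only 1 naive library reached the minimum of 10 where 2 libraries were required. The eosinophil median carries that choice. The eosinophil count of receptors called carries it too, through Fpr1, and the count without overlap through Fpr1 and Cx3cr1.

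**Figure D3:**
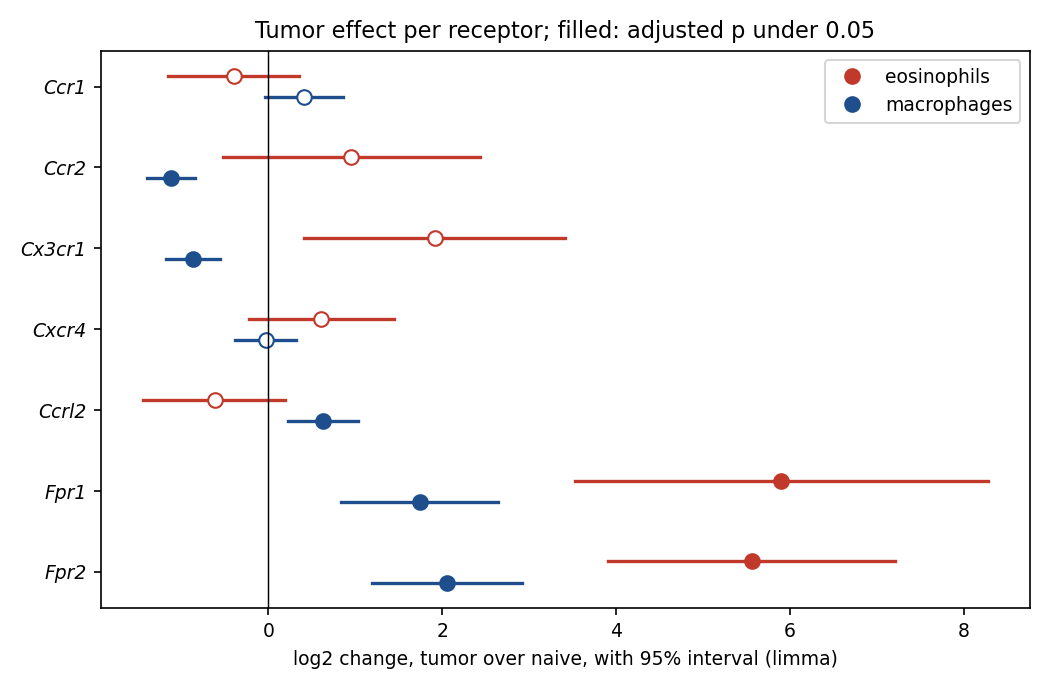
The log2 change of each receptor, tumor over naive (horizontal axis), is drawn with its 95% limma interval for eosinophils (red) and macrophages (blue); filled points passed an adjusted p of 0.05. Fpr2 stands at 5.56 in eosinophils and 2.05 in macrophages, and Ccr2 at 0.95 and −1.12.

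Whether the tumor effect differed between the cell types was tested in 1 model of all 20 libraries after joint TMM scaling of the recovered reads. The eosinophil effect minus the macrophage effect was 3.23 ± 0.85 for Fpr2 (log2, 95% interval 1.47 to 5.0, adjusted p = 0.0316), 2.28 ± 0.49 for Cx3cr1 (1.27 to 3.28, 0.00794) and 1.79 ± 0.44 for Ccr2 (0.87 to 2.71, 0.0218). These 3 of 7 were called in the positive direction, where 1.75% of 14973 genes were (2.67% in the negative one and 4.42% in either), and their median with the other 4 was 1.79, against −0.05 over all genes. For Cx3cr1 and Ccr2 the difference joins the low counts of eosinophils to the fall in macrophages. Fpr1 (3.14 ± 1.01, 95% interval 1.06 to 5.21, adjusted p = 0.0777) and Ccrl2 (−1.36 ± 0.41, −2.2 to −0.52, 0.0552) did not pass, although Fpr1 was called without tumor eosinophil library 2 (3.56, 0.0203) or 3 (3.48, 0.0388) and Ccrl2 without library 5 (−1.47, 0.0231). Neither did Ccr1 (−0.91 ± 0.40, 0.210) or Cxcr4 (0.53 ± 0.39, 0.489) pass. Because eosinophils had 2 naive libraries, the calls depended on them: without naive library 2 the differences were 2.2 for Cx3cr1 (adjusted p = 0.0897), 1.73 for Ccr2 (0.153) and 4.07 for Fpr2 (0.0640), and without naive library 1 that of Fpr2 was 2.44 (0.133). The Fpr2 call was also lost without naive macrophage library 2 (3.18, 0.0507) and with edgeR (3.35, 0.0543), and that of Ccr2 without tumor macrophage libraries 1 and 2 (1.70, 0.0511). With the close tumor macrophage pairs merged, Cx3cr1 was called (2.16, 0.0465) and Fpr2 (3.05, 0.0771) and Ccr2 (1.64, 0.0937) were not, and with the naive pairs merged too none of the 3 was (adjusted p of 0.106 to 0.182).

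On the joint CPM scale each receptor could be placed across the 4 groups. Cx3cr1 was lowest in both eosinophil groups, with 1.99 to 10.6 CPM in tumor and 0.939 to 1.32 CPM in naive eosinophils, and higher in macrophages, with 198 to 306 CPM in tumor and 383 to 465 CPM in naive libraries. No 2 neighbouring groups overlapped in that order. Ccr2 was also lowest in eosinophils, where tumor libraries (1.41 to 8.36 CPM) overlapped naive ones (1.57 and 1.98 CPM). Its macrophage groups stood above them and apart, at 50.7 to 73.0 CPM in tumor and 107 to 164 CPM in naive libraries.

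For Cxcr4 the eosinophil groups came first, tumor eosinophils at 977 to 3048 CPM and naive eosinophils at 797 and 1509 CPM, both above tumor macrophages (343 to 644 CPM) and naive macrophages (435 to 539 CPM). Groups of the same cell type overlapped and groups of different cell types did not. Ccrl2 had 654 to 1607 CPM in tumor and 1401 and 1557 CPM in naive eosinophils, the highest mean, and 346 to 685 CPM in tumor and 185 to 376 CPM in naive macrophages, the lowest. Every pair of neighbours in the order of Ccrl2 means overlapped. All neighbours overlapped for Ccr1 too, which averaged 111 ± 28.5 CPM in tumor and 147 ± 34.7 in naive eosinophils (SD), and 172 ± 53.1 in tumor and 122 ± 38.7 in naive macrophages.

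Both formyl peptide receptors were ordered tumor eosinophils, tumor macrophages, naive macrophages, naive eosinophils. Fpr2 had 82.5 to 576 CPM in tumor eosinophils and 64.1 to 435 CPM in tumor macrophages, which overlapped, against 2.97 and 10.6 CPM in naive eosinophils and 30.3 to 45.9 CPM in naive macrophages, which did not. Fpr1 had 10.7 to 149 CPM in tumor eosinophils and 8.80 to 47.3 CPM in tumor macrophages, which overlapped, against 0 and 3.44 CPM in naive eosinophils and 5.76 to 7.75 CPM in naive macrophages, which did not.

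Tumor eosinophils compared with tumor macrophages had more Cxcr4 (log2 difference 1.71 ± 0.21, adjusted p = 7.55e-07) and Ccrl2 (0.99 ± 0.22, 0.00104), and less Cx3cr1 (−5.38 ± 0.27, 1.86e-13), Ccr2 (−3.82 ± 0.25, 1.23e-11) and Ccr1 (−0.61 ± 0.22, 0.0302). Thus 2 of 7 were called higher and 3 lower, where 19.7% of genes were called higher and 24.5% lower (44.2% in all). Fpr1 (1.28 ± 0.56, adjusted p = 0.0643) and Fpr2 (0.75 ± 0.47, 0.202) did not pass. The Ccr1 call was lost without tumor eosinophil libraries 1, 2 and 3 together (−0.25, adjusted p = 0.396), where Fpr1 (2.34, 0.000266) and Fpr2 (1.68, 0.00239) were called. It was also lost without any 1 of these 3, of tumor macrophage libraries 3, 4, 5 and 6 or of naive macrophage libraries 1 and 3, with adjusted p-values of up to 0.123, and with the close tumor and naive pairs merged (−0.71, 0.0606). Fpr1 was called without tumor eosinophil library 2 (1.73, 0.0073) or 3 (1.65, 0.0165), tumor macrophage library 1 (1.53, 0.0425) or 5 (1.52, 0.0453), or either naive eosinophil library (1.33 each, 0.0497 and 0.05).

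Naive eosinophils compared with naive macrophages had more Ccrl2 (2.35 ± 0.34, adjusted p = 7.96e-06) and Cxcr4 (1.18 ± 0.32, 0.00658), and less Cx3cr1 (−7.65 ± 0.41, 9.53e-13), Ccr2 (−5.60 ± 0.37, 3.66e-11) and Fpr2 (−2.48 ± 0.71, 0.00962). Again 2 of 7 were called higher and 3 lower, where 15.2% of genes were called higher and 15.5% lower (30.7% in all). Fpr1 (−1.85 ± 0.84, 0.0993) and Ccr1 (0.30 ± 0.33, 0.538) did not pass. Without naive eosinophil library 1 the calls of Cxcr4 (0.79, adjusted p = 0.142) and Fpr2 (−1.64, 0.196) were lost, and that of Cxcr4 also with library size scaling (0.68, 0.11) and with the close pairs merged (1.0, 0.0688). These comparisons share their libraries with the tumor effects above.

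The genes whose pattern over the 20 libraries was most like each remaining receptor were led by macrophage genes for Ccr2 and Cx3cr1, a likeness that carries the gap between the cell types. For Ccr2 they were Rab7b (Pearson r = 0.990), Ms4a7 (0.986) and the anti-inflammatory cytokine Il10 (0.986). For Cx3cr1 they were Ciita, the master regulator of class II antigen presentation (0.989), Scpep1 (0.985) and the class II chain H2-Eb1 (0.984). Cxcr4 was most like Osgin1 (0.953) and Sh2d3c (0.950), and Ccrl2 most like Fam32a (0.959), Basp1 (0.948) and Rab11fip1 (0.946). Ccr1 had lower values, with Dmtf1 (0.903), Degs1 (0.899) and Bcl2a1b (0.896).

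Of 9 other chemokine receptors tested in eosinophils 1 was called, Ccr3, the eotaxin receptor that brings eosinophils to the gut. It averaged 1197 ± 336 normalised reads in tumor eosinophils (SD, n = 7) and 3383 ± 1089.8 in naive eosinophils (n = 2), a log2 change of −1.52 ± 0.36 (adjusted p = 0.0307), a call lost without naive library 2 (−1.18, 0.370) or tumor library 1 (−1.53, 0.0532). In macrophages 3 of 8 were called, 2 of them lower: Xcr1, a receptor of cross-presenting dendritic cells (−2.08 ± 0.30, adjusted p = 0.000233), and Ccr10 (−1.52 ± 0.37, 0.0105), the second not with the close tumor and naive pairs merged (−1.32, 0.135). The medians were 0.71 in eosinophils and 0.49 in macrophages.

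Receptors for other chemoattractants, 9 tested in each cell type, gave no call in eosinophils (0 by limma) and 3 in macrophages. The nucleotide receptor P2ry2 rose in tumor macrophages (1.82 ± 0.33, adjusted p = 0.00127), and the complement receptor C3ar1 (−0.73 ± 0.15, 0.00282) and the sphingosine phosphate receptor S1pr4 (−2.0 ± 0.56, 0.0217) fell. The S1pr4 call was lost without naive library 3 (−1.87, adjusted p = 0.0610) or 4 (−1.85, 0.0590) and with the close tumor and naive pairs merged (−1.83, 0.0584). Cmklr1, the signalling receptor of chemerin, had 84.7 ± 44.8 normalised reads in tumor and 21.5 ± 15.7 in naive eosinophils, and 319 ± 45.0 in tumor and 333 ± 86.1 in naive macrophages. Its effect differed between the cell types (1.74 ± 0.49, 0.0412), as did that of the oxysterol receptor Gpr183 (−1.54 ± 0.41, 0.0315). Cmklr1 was called in 16 and Gpr183 in 20 of 33 alternatives, and without naive eosinophil library 1 they stood at 1.10 (0.220) and −1.46 (0.0605). The median log2 change was −0.07 in eosinophils and −0.10 in macrophages.

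The ligands of the 7 receptors were mostly lower in tumor macrophages, the Ccr2 ligands among them. Of 13 tested in eosinophils 3 rose and none fell: Saa3, a serum amyloid A (4.12 ± 0.33, adjusted p = 0.000118), Ccl2 (2.84 ± 0.70, 0.0368) and Ccl4, a macrophage inflammatory protein (2.22 ± 0.50, 0.0268). Saa3 kept its call in all 20 alternatives. Ccl2 lost it without naive library 1 (1.29, adjusted p = 0.279) or any 1 of tumor libraries 4, 5, 6 and 7 (0.0553 to 0.0615), and Ccl4 without naive library 1 (1.91, 0.116) or 2 (2.52, 0.156). Of 13 tested in macrophages 2 rose, Saa3 (3.50 ± 0.30, 2.52e-06) and Ccl5 (1.06 ± 0.35, 0.0489), and 7 fell. Those that fell were the Ccr2 ligands Ccl2 (−2.44), Ccl7 (−2.68) and Ccl12 (−1.22), the Ccr1 ligands Ccl6 (−0.84) and Ccl9 (−0.80), the Cxcr4 ligand Cxcl12 (−2.48) and the chemerin gene Rarres2 (−2.42), and these calls held in all 24 alternatives, except Ccl9 with the close tumor pairs merged (−0.80, 0.0639) or the naive pairs too (−0.90, 0.0772). Ccl5 lost its call in 13 of 24, among them without naive libraries 2, 4 and 5 and tumor libraries 2 to 6, and ranged from 0.85 to 1.36 over the 24. The list's median log2 change was 1.37 in eosinophils and −0.80 in macrophages.

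Ccl2 had 533 ± 270.3 normalised reads in tumor and 107 ± 121 in naive eosinophils, and 790.1 ± 286 in tumor and 4221 ± 1274 in naive macrophages. Its tumor effect differed between the cell types by 5.09 ± 0.66 (adjusted p = 6.8e-05), and so did those of Ccl7 (4.41 ± 0.52, 1.8e-05), Ccl4 (2.64 ± 0.50, 0.00332) and Anxa1, a ligand of formyl peptide receptors (1.54 ± 0.41, 0.0317). The first 3 were called in all 33 alternatives, and Anxa1 not with the close tumor macrophage pairs merged (1.43, 0.114) or without naive eosinophil library 1 (1.23, adjusted p = 0.104) or 2 (1.88, 0.0640), naive macrophage library 2 (1.49, 0.0505) or tumor macrophage libraries 1 and 2 (1.33, 0.0702). Saa3 had 1774 ± 485 normalised reads in tumor and 98.5 ± 21.2 in naive eosinophils, and 779.7 ± 415 in tumor and 63.2 ± 19.1 in naive macrophages. Cx3cl1, the ligand of Cx3cr1, had 30.6 ± 29.0 in tumor and 27.4 ± 31.9 in naive eosinophils, and 30.4 ± 6.45 in tumor and 28.0 ± 8.11 in naive macrophages, and was not called. Camp, which is also on the neutrophil list, had at most 25 reads in a tumor eosinophil library and was too low to test in macrophages.

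**Figure D4:**
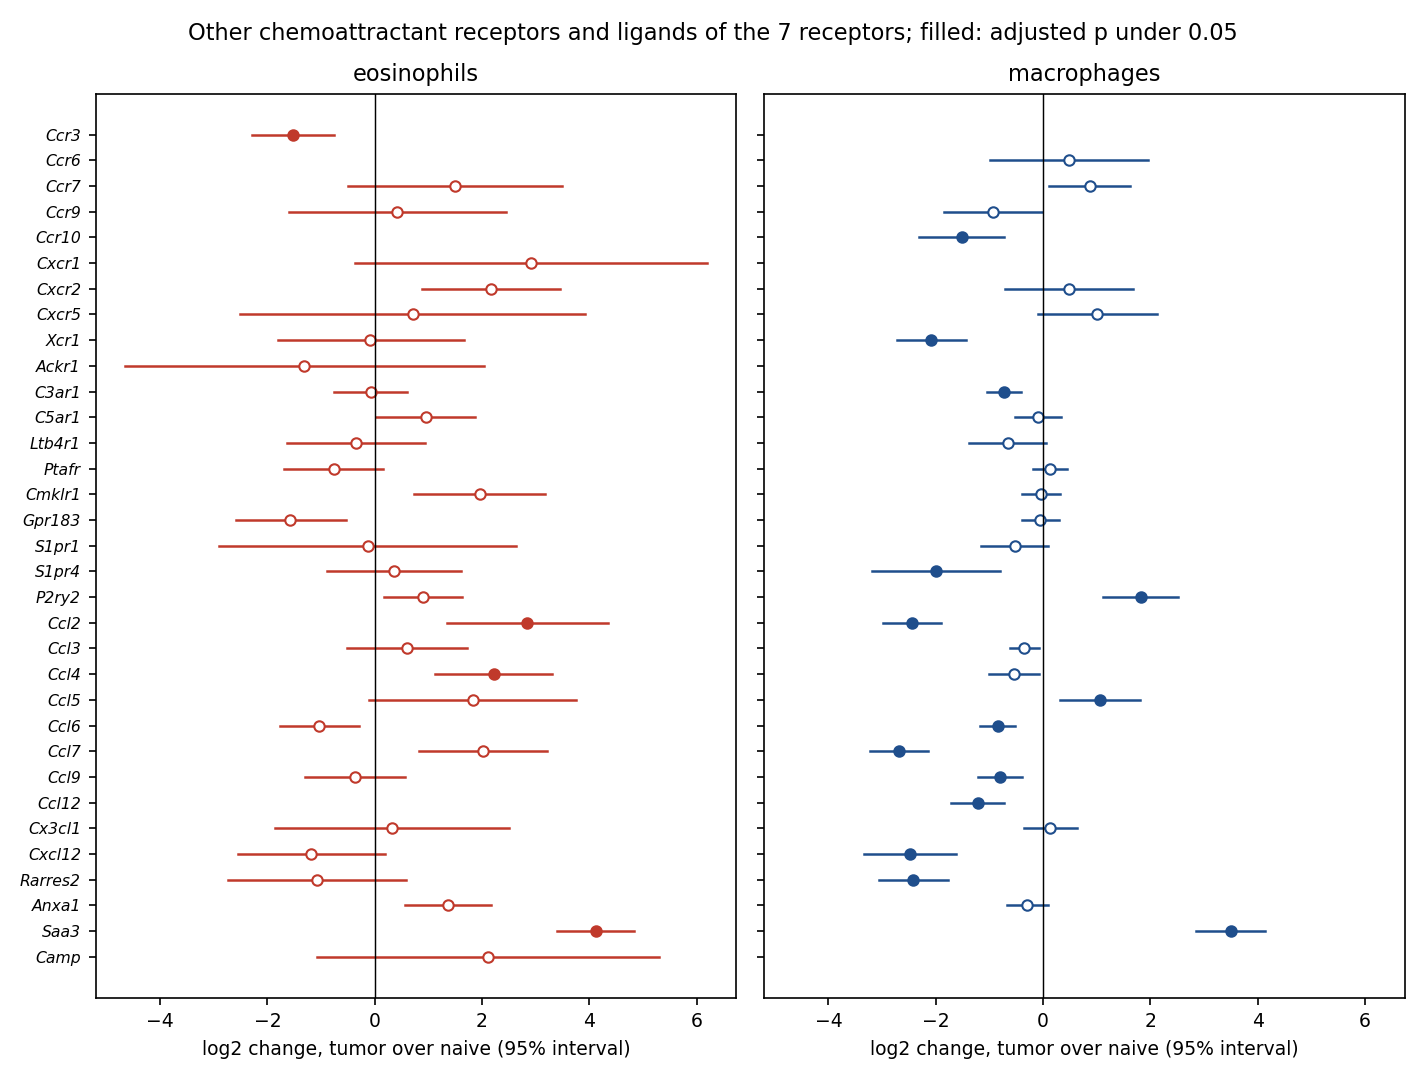
Log2 changes, tumor over naive, with 95% limma intervals are drawn for other chemokine receptors, other chemoattractant receptors and ligands (rows, top to bottom) in eosinophils (left) and macrophages (right); filled points passed an adjusted p of 0.05 and a blank row was too low to test. Ccl2 stands at 2.84 in eosinophils and −2.44 in macrophages, and Saa3 at 4.12 and 3.50.

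Downstream of the receptors, 27 genes of G protein signalling and movement were tested in eosinophils, of which 5 were called lower and none higher. The 3 with the largest change were regulators of G protein signalling, which shorten receptor signals: Rgs18 (−2.16 ± 0.40, adjusted p = 0.0116), Rgs14 (−2.11 ± 0.42, 0.0145) and Rgs1 (−2.01 ± 0.33, 0.00624). Without naive library 2 none of these 3 was called (adjusted p of 0.215, 0.157 and 0.115). In macrophages 3 of 26 were called lower and none higher, the motility exchange factor Prex1 (−0.61 ± 0.19, 0.0432), Rgs10 (−0.57 ± 0.12, 0.00408) and Elmo1 (−0.53 ± 0.13, 0.00936), of which Prex1 was called in 11 of 24 alternatives and none with the close tumor and naive pairs merged (adjusted p of 0.190, 0.0555 and 0.130). Rgs14 (−1.83 ± 0.44, adjusted p = 0.0182), Rgs1 (−1.59 ± 0.42, 0.0327) and Rgs2 (−1.53 ± 0.35, 0.0122) differed between the cell types, and without naive eosinophil library 2 they did not pass (0.123, 0.291 and 0.125), nor with the close tumor and naive macrophage pairs merged (0.126, 0.169 and 0.105). Immediate-early genes, a group that responds to tissue handling, moved in the same direction: 13 of 19 were called lower in tumor eosinophils, which summed to 9248 to 17441 CPM of them against 49809 and 52366 CPM in naive eosinophils. In macrophages 13 of 19 were called lower and 1 higher, with 10724 to 20725 CPM in tumor and 23372 to 30370 CPM in naive libraries. The part of handling in the Rgs values was not tested. The medians of the signalling list were −0.52 in eosinophils and −0.15 in macrophages.

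Eosinophil and macrophage markers separated the sorts by cell type, but all sorts also carried B and plasma cell transcripts. Those 8 markers summed to 6268 to 14697 CPM in tumor and 4866 and 6889 CPM in naive eosinophils. That exceeded the eosinophil markers in every eosinophil library except tumor library 4. In macrophages they summed to 4455 to 49094 CPM in tumor and 11743 to 55523 CPM in naive libraries. Some macrophage libraries had more of them than of macrophage markers (55523 against 24740 CPM in naive library 3). Eosinophil markers summed to 962 to 11291 CPM in tumor and 2313 and 3463 CPM in naive eosinophils, against at most 64.1 CPM in a macrophage library, with 3 of 12 called lower in tumor eosinophils, the lectin Siglecf (−1.89 ± 0.42), the interleukin 5 receptor Il5ra (−1.82 ± 0.42) and Ccr3, none of them without naive library 2. The genes of granule proteins on the same list had positive values that did not pass, Prg3 4.16, Ear1 3.61, Ear2 3.36, Ear6 2.30, Epx 2.21 and Prg2 1.73, and the list's median was 0.30. In macrophages 1 of 5 tested eosinophil markers was called, Ear2 (−3.36 ± 0.50). Lists of T and NK cells, B and plasma cells and mast cells had no call in eosinophils (0 of 7, 8 and 4 tested, by limma), and in macrophages 0 of 4, 0 of 8 and 1 of 4. Resident macrophage markers had 1 of 4 called lower in eosinophils (Hes1), dendritic cell markers 0 of 4, and epithelial markers 3 of 7 higher in macrophages, led by Krt18 (2.16 ± 0.43). Mitochondrial genes took 15.2 to 35.2% of reads in tumor and 17.9 and 24.6% in naive eosinophils, and 8.24 to 10.4% in tumor and 8.29 to 15.9% in naive macrophages.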

How the data were processed

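RNA of sorted colonic eosinophils and macrophages was profiled by CEL-Seq, with 3 technical replicates per sample, per the labels' protocols. Tools named in the submitters' processing notes were HTSeq 0.6.1, TopHat2 2.1.0, DESeq2 1.14.1, Bowtie2 2.2.6, Trim Galore and FastQC 0.11.5, with the build GRCm38.p5. The notes and labels state neither their order and settings nor the annotation, strand, molecular barcodes or merging of technical replicates. The authors deposited 1 table of normalised signal (read counts divided by a size factor) per cell type, each scaled on its own, with 50600 gene names.

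Every deposited non-zero value (100.0% of 374526) was a whole multiple of what 1 read was worth, within 0.1 read, so the read counts could be recovered. Values were tested as log2(value + 1), a scale that understates changes of low genes, with limma 3.58.1 (eBayes with trend, two-sided, R 4.3.3). Genes needed 10 in at least 2 eosinophil or 5 macrophage libraries. For levels and differences between cell types the recovered reads were scaled together (TMM, edgeR 4.0.16), as log2(CPM + 1), with 10 in at least 2 libraries. Benjamini-Hochberg adjustment ran over all genes tested, and an adjusted p under 0.05 is a call. Errors of log2 values are SE. The fits were also run on simulated independent libraries with the same extra spread for every gene and changes set only in well-read genes. That run does not cover closely alike libraries or genes with few reads.

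The 7 receptors and 15 further gene lists were chosen with earlier results of these data known. Within a list, up to 3 called genes per direction are named, every called ligand, and the 3 genes most like each receptor; some genes that this rule names are not reported here. Of the names, 94.4% matched GENCODE M21. The 27 entries with a bare number for a name (at most 0.1323% of a library's reads) were left out, and 181 entries with repeated names were kept. No deposited library column lacked a sample. Alternatives were other pseudocounts, filters and scalings, edgeR and DESeq2 1.42.0 on recovered reads, limma-voom, a replicate block, leaving out libraries and merging closely alike macrophage libraries.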

Additional observations from a re-analysis of the deposited data

Results flagged for a closer look

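The 12 results below had a tumor effect that differed between eosinophils and macrophages in the joint limma model (adjusted p under 0.05, eosinophil effect minus macrophage effect on the log2 scale). Among the receptors they were Fpr2 (3.23), Cx3cr1 (2.28), Ccr2 (1.79), the chemerin receptor Cmklr1 (1.74) and the oxysterol receptor Gpr183 (−1.54). Among the ligands they were Ccl2 (5.09), Ccl7 (4.41), Ccl4 (2.64) and Anxa1 (1.54). The regulators of G protein signalling Rgs14 (−1.83), Rgs1 (−1.59) and Rgs2 (−1.53) also had negative values. All 12 share the 2 naive eosinophil libraries. No library stood apart from its group in the 21 groups of 4 to 10 libraries tested among the 7 receptors, where chance alone would mark about 1 in 20.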

How the results depend on the processing

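Of 998 recomputed receptor values, 917 kept their direction and side of the threshold, 50 lost a call, 24 gained one and 7 changed sign. The sign changes were Cxcr4 in macrophages (−0.03 in the report), at 0.03 with TMM scaling, 0.18 with library size scaling, 0.02 and 0.01 without naive libraries 1 and 3, and 0.00 and 0.08 without tumor libraries 1 and 5 (range −0.1 to 0.08 over single libraries), and Ccr1 in naive eosinophils against naive macrophages, at −0.19 with library size scaling. The 598 genes called in eosinophils became 1383 with DESeq2, 197 with limma-voom and 93 to 951 when single libraries were left out (93 without naive library 2, 951 without naive library 1). The 2 receptors called there became 0 with limma-voom and 1 to 2 on leaving out libraries. The 662 genes whose effect differed between cell types became 1077 with DESeq2, 132 with limma-voom, 1025 without tumor eosinophil libraries 1, 2 and 3 (chosen after seeing the data, as was leaving out tumor macrophage libraries 1 and 2), and 137 to 1694 on leaving out single libraries. The 3 receptors called for it became 0 with limma-voom and 0 to 4 on leaving out libraries (0 without naive eosinophil library 2). Between naive eosinophils and naive macrophages the 4597 genes became 2556 with limma-voom and 3157 to 4916 on leaving out libraries, and the 5 receptors 3 to 5 (3 without naive eosinophil library 1). For macrophages leaving out libraries gave 1509 to 1929 genes against 1968, with 4 to 5 receptors. With the close tumor macrophage pairs merged (chosen after seeing the data, like the next), 1167 genes were called in macrophages and 329 for the difference, with 4 and 1 receptors. With the naive pairs merged too the genes were 877 and 111, with 3 and 0 receptors, and 4278 between tumor cell types against 6620. Of 101 called results of the other lists, 2566 recomputed values held 2219 kept and 347 lost calls, with no sign change. Of the 25 in eosinophils, 18 were lost without naive library 2 and 15 with limma-voom, and of 29 differences between cell types, 19 and 25. The causes were not tested.

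Library size scaling moved the median of all genes to 0.19 in eosinophils, 0.23 in macrophages, −0.36 between tumor and −0.37 between naive cell types. It changed the calls higher and lower to 368 and 186 in eosinophils (314 and 284 in the report), 1805 and 630 in macrophages (979 and 989), 1803 and 5732 between tumor cell types (2950 and 3670) and 1317 and 3683 between naive cell types (2278 and 2319). Median-of-ratios scaling gave 318 and 269 for the difference (262 and 400).

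In macrophages the replicate numbers did not show pairing: same-numbered libraries correlated at −0.31 to 0.06, and none was the best match. In the 2 eosinophil pairs they correlated at 0.13 and 0.12, weakly, but above every other tumor library. Around their own mean 2 naive libraries mirror each other, so the check cannot settle pairing in eosinophils. A fit with the replicate number as a block gave 1143 genes in eosinophils and 1230 in macrophages. It called Cx3cr1 in eosinophils (2.75, adjusted p = 0.0185) and did not call Ccrl2 in macrophages (0.55, 0.175). The eosinophil values of this fit rest on libraries 1 and 2 of each group, since tumor libraries 3 to 7 have no naive partner and carry no weight. Tumor libraries 1 and 2 had 32.7 and 34.1 normalised reads of Cx3cr1, against a median of 13.1 over all 7. Depth limits Ccr2 and Cx3cr1 in eosinophils, which rest on 3 to 69 reads, and Fpr1 in naive eosinophils, on 0 and 11.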
